A study of Mus musculus with 96 samples.

Results

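The genes described here encode the subunits of the proteasome, its activators and its assembly factors. They were taken from the deposited gene table by name (Psm followed by a letter from a to g and a number, leaving out names that end in -ps or os), which gave 52 of 48795 genes. By role these were 8 alpha subunits of the core particle, 7 constitutive beta subunits, 4 immune or thymus beta subunits, 6 ATPases of the regulatory particle base, 11 other regulatory particle subunits, 5 activators or inhibitors and 7 assembly factors. The name rule also took Psmc3ip, a meiotic recombination factor named after its binding to Psmc3, and 3 retrocopies or pseudogenes (Psme2b, Psmb6-ps2 and Psmb7-ps2).

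The proteasome degrades proteins that carry ubiquitin chains. A barrel of alpha and beta rings holds the proteolytic sites, and a regulatory particle on its end binds the chain, removes it and threads the protein inward through a ring of ATPases. Interferons can replace the catalytic beta subunits with immune versions and raise the cap built from Psme1 and Psme2, which opens the barrel without using ATP. Mutant huntingtin forms ubiquitin-positive inclusions, and proteasome function has long been studied in Huntington's disease models.

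RNA was sequenced from the striatum and cerebral cortex of 48 C57BL/6 mice aged 6 months, 96 libraries in all, and the cross of both lines asks how losing Msh6, a subunit of a mismatch recognition complex, changes the response to Q140. The genotypes were Q140 (heterozygous for an expanded CAG repeat knocked in to Htt), Q140 with Msh6+/-, Q140 with Msh6-/-, Msh6-/- alone, Msh6+/- alone, and wild type, with 8 mice each (4 males and 4 females). Each tissue was taken whole, so that a lower number of cells of a type and less RNA per cell cannot be told apart. The labels name neither the source of the knock-in line nor the Msh6 allele.

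Library totals ran from 12403528 to 22886441 counts, of which the 52 genes took 0.221% to 0.265%. Msh6 transcript was at 0.43 and 0.47 of the matched Msh6+/+ level in Msh6-/- striata (with and without Q140), with reads still assigned to the gene. Htt transcript was lower with Q140 in striatum, at a log2 fold change of -0.12 ± 0.02 averaged over the Msh6 genotypes (SE, edgeR adjusted p = 9.74e-07). In striatum against cortex, 10 of 10 projection neuron markers were higher and 8 of 8 cortical glutamatergic neuron markers were lower. The striatum of mouse 21-3 (Q140 Msh6-/-) stood apart, with choroid plexus markers summing to 2731 CPM (counts scaled to library size) against a group median of 32.1.

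The constitutive proteasome genes were expressed in both tissues at similar levels. Compared per length on the deposited FPKM scale, the median over the 48 striata of 31 constitutive core and regulatory particle subunits ran from 7.18 FPKM for Psma3 to 77.7 FPKM for Psmb1, around a middle value of 21.8. Over the 48 cortices the same 31 genes ran from 7.68 FPKM (Psma3) to 92.3 FPKM (Psmc5), around 22.6. The ATPases Psmc5 and Psmc1 stood next below Psmb1 in striatum at 75.4 and 61.3 FPKM, and their ranges over mice overlapped (66.8 to 84.9 and 57.7 to 68.5). The FPKM values divide by a fixed length per gene, which understates genes whose annotated exons add up to much more than their main transcript.

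The activator Psme3, a nuclear relative of Psme1 and Psme2, was the most abundant of the caps at 29.3 FPKM in striatum, against 8.13 for Psme1, 7.88 for the large single-chain activator Psme4 and 3.75 for Psme2. Assembly factors ran from 1.82 (Psmg3) to 10.2 FPKM (Psmg2). Tissue-restricted subunits were near the floor. Psma8, an alpha subunit of the testis, had 0 to 12 counts per striatal library, and Psmb11, the beta subunit of the thymus, was at 0 counts in 42 of 48 striata.

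Each immune catalytic subunit has a constitutive counterpart, and its FPKM as a percentage of the pair shows how the trio differed. In striatum Psmb10 made up 18.3% of its pair with the trypsin-like subunit Psmb7 (median of 48 mice, range 13.6% to 22.2%). By contrast Psmb8 made up 1.48% of its pair with the chymotrypsin-like subunit Psmb5, and Psmb9 made up 0.705% of its pair with the caspase-like subunit Psmb6. In cortex the share was 42.1% for Psmb10 (37.3% to 47.5%), against 1.43% for Psmb8 and 1.01% for Psmb9. Of the 3 immune subunits Psmb10 thus had the largest share in both tissues. The size of each share depends on the fixed lengths, which raise that of Psmb10 and lower those of Psmb8 and Psmb9. They were 1705 bases for Psmb10 and 3421 for Psmb7, but 2736 for Psmb8 and 871 for Psmb5, and 3659 for Psmb9 and 1872 for Psmb6. In CPM the striatal medians were 7.15 for Psmb10 and 64.0 for Psmb7, against 1.88 for Psmb8 and 40.2 for Psmb5. Its gene lies within a noncoding gene on the opposite strand, Gm16156, that had at most 4 counts in any library.

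**Figure D1:**
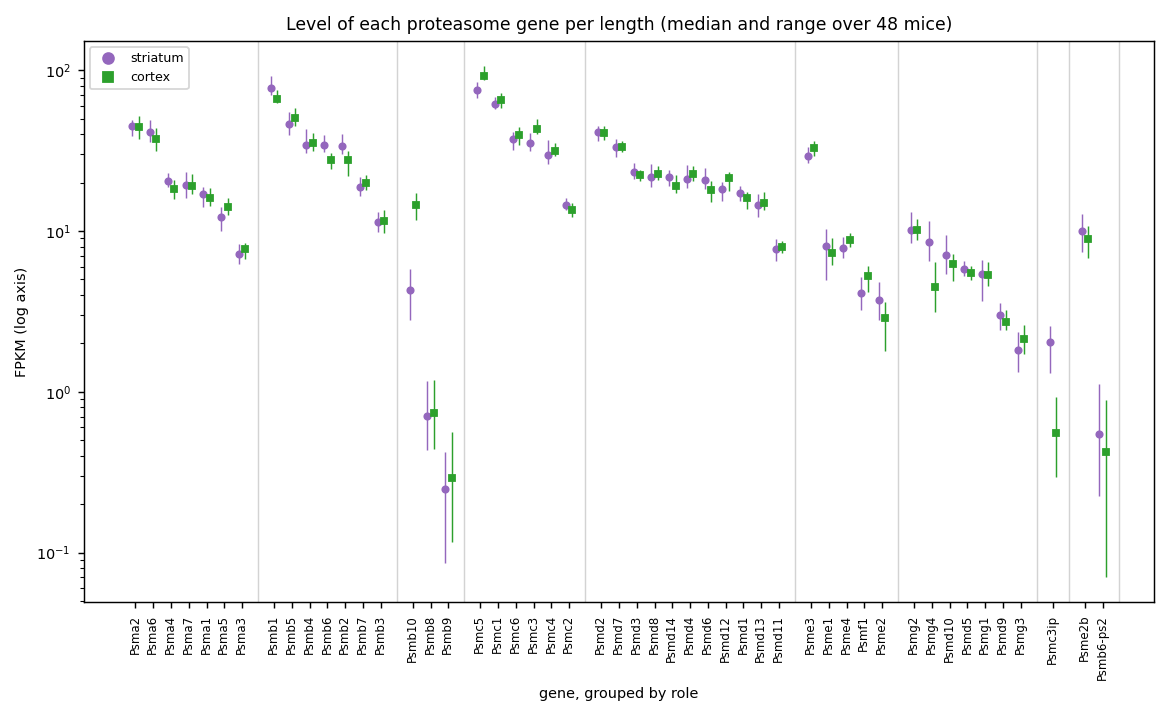
Level of each proteasome gene in FPKM (log axis), grouped by role, with the median and the full range over 48 striata (circles) and 48 cortices (squares). Psma8, Psmb11 and Psmb7-ps2 are left out because their levels are at or near 0. Psmb10 lies at 4.27 FPKM in striatum and 14.5 FPKM in cortex, while Psmb8 and Psmb9 lie below 1 FPKM in both medians.

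With Q140, most of the proteasome transcripts that changed in striatum were slightly higher. In a fit over all 48 striata that averaged the Q140 effect over the 3 Msh6 genotypes, 25 of the 49 genes tested rose and 3 fell (edgeR quasi-likelihood, adjusted p under 0.05). Psma8, Psmb11 and Psmb7-ps2 did not reach the minimum count for a test. Q140 changed so many striatal genes that this share has to be read against the whole: 57.1% of the 49 genes were called, against 52.7% of all 17503 genes. The share that rose was 51.0% against 29.1% of all genes, and the share that fell was 6.12% against 23.6%. The median log2 fold change was 0.049, against 0.015 over all genes.

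Most of these changes were small. Of the 28 genes called, 21 moved by less than 0.13 on the log2 scale, and 2 genes, Psme1 and Psmb10, moved by more than 0.3. Such small values depend on how libraries are scaled. RLE factors in place of TMM gave 21 rises and 4 falls. The deposited FPKM scale gave 42 rises and 0 falls of 50 genes (limma-trend), with the median of all genes at 0.078 and 76.5% of all calls higher, against 55.3% by TMM. Without the striatum of mouse 21-3 the counts were 22 and 2.

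**Figure D2:**
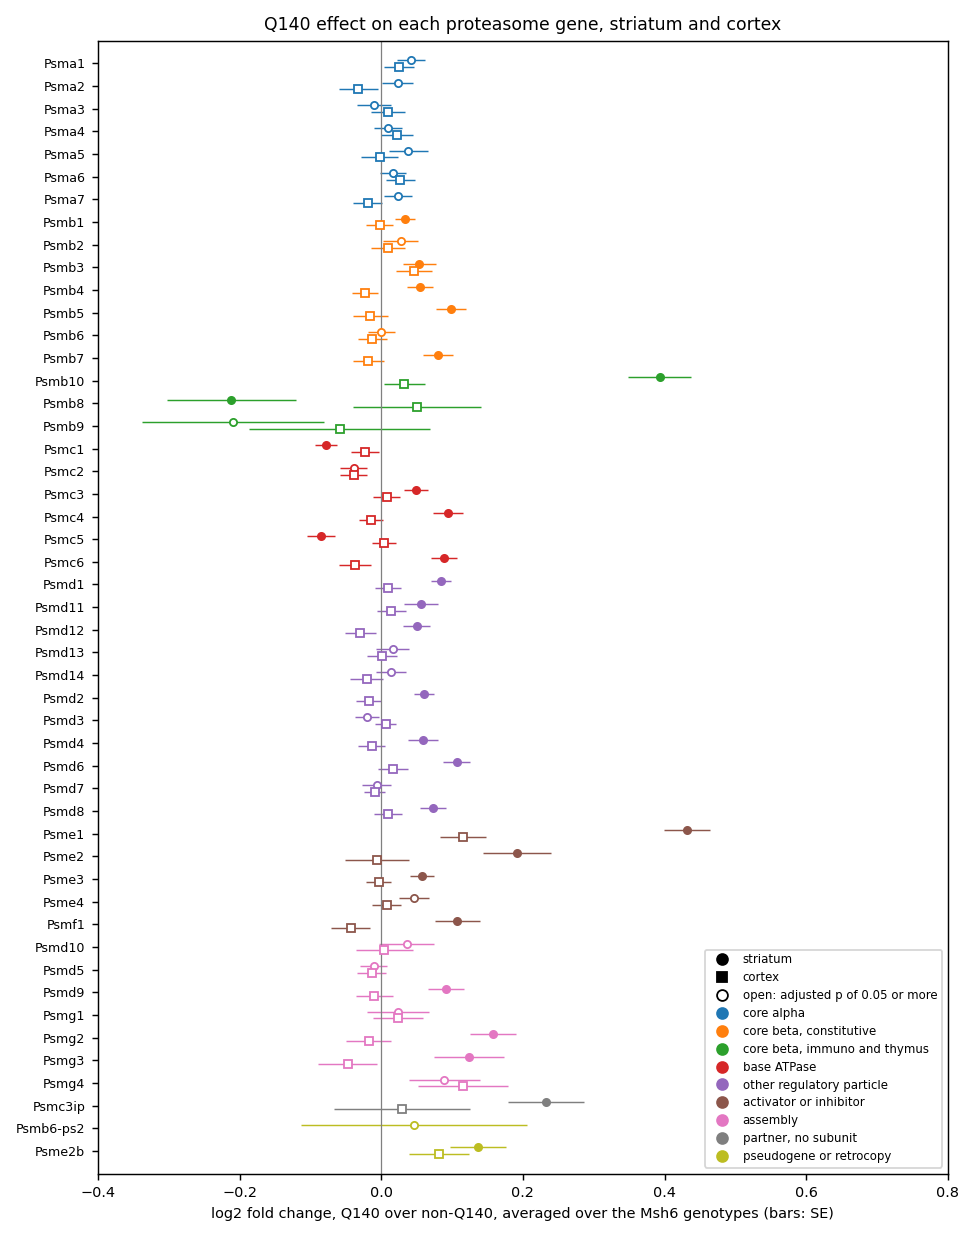
Log2 fold change of Q140 over non-Q140 mice, averaged over the Msh6 genotypes, for the 49 genes tested in striatum (circles) and the 48 tested in cortex (squares), coloured by role, with SE bars. Filled symbols passed an adjusted p of 0.05. Psme1 and Psmb10 stand furthest right at 0.43 and 0.39 in striatum, and every cortical symbol is open.

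Of the 5 activators or inhibitors, 4 rose and 0 fell, where 29.1% of all genes rose and 23.6% fell. Psme1, the alpha subunit of the interferon-inducible cap, showed the clearest difference between genotypes. Its lowest, median and highest striatal values were 17.5, 19.8 and 22.1 CPM in Q140 mice, against 12.5, 14.8 and 16.9 CPM in wild-type mice. In Q140 Msh6+/- mice they were 18.3, 19.5 and 20.1 CPM, against 13.2, 14.5 and 18.1 CPM in Msh6+/- mice. In Q140 Msh6-/- mice they were 18.2, 19.6 and 19.9 CPM, against 11.7, 14.4 and 16.9 CPM in Msh6-/- mice. All Q140 mice lay above every mouse of the matching group without Q140 in each of the 3 pairs. The averaged log2 fold change was 0.43 ± 0.03 (SE, 1.35-fold, edgeR adjusted p = 3.49e-16), and the single pairs gave 0.44, 0.39 and 0.46. Psme1 lies on chromosome 14 (55578123 to 55581529, plus strand, GRCm38, GENCODE M21).

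Psme2, the partner of Psme1 in the same ring and its neighbour on chromosome 14 (55587441 to 55591113), rose less, though its near copy Psme2b may share its reads. It ran from 5.47 to 8.27 CPM with a median of 6.88 in the 24 striata with Q140, against 4.91 to 7.19 CPM with a median of 5.91 in the 24 without, so the groups overlapped. Its averaged log2 fold change was 0.19 ± 0.05 (adjusted p = 7.31e-04), and in no single pair did it pass (adjusted p of 0.112, 0.0563 and 0.0647). Psmf1, which binds the core and inhibits it in vitro, rose by 0.11 ± 0.03 (adjusted p = 3.47e-03), and Psme3 rose by 0.057 ± 0.017 (adjusted p = 3.95e-03). Psme4 was at 0.046 ± 0.021 and did not pass (adjusted p = 0.0608).

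The start regions of a few genes that moved are shown because they can be compared for short motifs. They are RefSeq promoter windows on GRCm38.p6, from 250 bases before to 50 after the start, and capitals mark a match to GAAA, 2 bases of any kind and GAAA (core of the interferon-stimulated response element), to TGACNNNGC (core of the antioxidant response element) or to CCAAT (the CCAAT box), each searched on both strands. Psme1 is at chr14:55578244-55578543 (plus strand), Psmb10 at chr8:105938343-105938642 (minus strand), Psmc6 at chr14:45329574-45329873 (plus strand) and Psmc5 at chr11:106255935-106256234 (plus strand).
Psme1: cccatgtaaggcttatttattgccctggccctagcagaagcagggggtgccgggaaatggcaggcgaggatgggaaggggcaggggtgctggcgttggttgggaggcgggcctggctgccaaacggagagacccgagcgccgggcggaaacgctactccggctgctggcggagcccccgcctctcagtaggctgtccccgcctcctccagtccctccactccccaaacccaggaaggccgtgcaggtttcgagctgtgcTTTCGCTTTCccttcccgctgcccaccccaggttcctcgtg
Psmb10: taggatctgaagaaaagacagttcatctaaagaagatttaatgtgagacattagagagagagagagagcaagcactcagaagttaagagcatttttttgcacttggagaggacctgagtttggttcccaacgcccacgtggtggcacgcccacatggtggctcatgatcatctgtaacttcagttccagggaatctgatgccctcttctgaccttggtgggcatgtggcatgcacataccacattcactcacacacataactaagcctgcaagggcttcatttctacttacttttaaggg
Psmc6: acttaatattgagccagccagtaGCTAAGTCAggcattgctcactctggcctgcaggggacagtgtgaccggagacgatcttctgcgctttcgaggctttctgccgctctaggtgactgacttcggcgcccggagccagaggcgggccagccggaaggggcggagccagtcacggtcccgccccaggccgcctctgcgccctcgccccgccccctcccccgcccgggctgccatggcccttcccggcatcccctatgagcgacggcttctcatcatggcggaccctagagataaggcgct
Psmc5: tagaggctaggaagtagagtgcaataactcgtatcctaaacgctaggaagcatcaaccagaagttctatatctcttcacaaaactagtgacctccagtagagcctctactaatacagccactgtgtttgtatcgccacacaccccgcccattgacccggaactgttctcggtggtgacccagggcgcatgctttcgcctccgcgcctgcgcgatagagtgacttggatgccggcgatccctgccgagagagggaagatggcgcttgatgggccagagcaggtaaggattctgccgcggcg

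Psme1 holds the first motif just after its RefSeq start and Psmc6 holds the second, while Psmb10, which rose, and Psmc5, which fell, hold none of the 3 in these windows. Among windows not shown, that of Psmc1, which also fell, holds CCAAT, and that of Psmd6, which rose, holds none of the 3. Windows were found for 42 of the 52 genes, 45 in all. The interferon-stimulated core was in 11.1% of them (those of Psmb3, Psmd4, Psmd9, Psme1 and Psmg4), against 3.44% of all 32851 windows. The antioxidant core was in 13.3% (Psmb5, Psmb6, Psmc6, Psmd12, Psmd9 and Psme4), against 12.4% of all. Psmd9 held both. CCAAT was in 33.3% against 37.4% of all, and GGGCGG (the GC box, not in capitals) in 53.3% against 35.7%. These are matches of letters only, and no binding was measured.

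The immune beta subunits did not all rise with Q140. Psmb10 (chromosome 8, 105935735 to 105938444, minus strand) rose with Q140. In striatum its lowest, median and highest values were 6.28, 7.90 and 9.62 CPM in Q140 mice, against 4.92, 5.85 and 7.24 CPM in wild-type mice. In Q140 Msh6+/- mice they were 7.02, 7.78 and 9.46 CPM, against 5.57, 6.60 and 7.23 CPM in Msh6+/- mice. In Q140 Msh6-/- mice they were 7.96, 8.74 and 9.12 CPM, against 5.27, 6.48 and 7.55 CPM in Msh6-/- mice. The last pair did not overlap, and in the other pairs 7 and 5 of 8 Q140 mice lay above all of their controls. The averaged log2 fold change was 0.39 ± 0.04 (1.31-fold, adjusted p = 1.01e-10). As a share of the pair with Psmb7 on the FPKM scale, Psmb10 stood at a median of 20.4% in striata with Q140 (16.9% to 22.2%), against 16.5% in striata without (13.6% to 20.6%).

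Psmb8, the immune chymotrypsin-like subunit, had a median of 1.74 CPM in the 24 striata with Q140 (1.20 to 2.61), against 2.17 CPM in the 24 without (1.26 to 3.23). These groups overlapped almost fully, at 16 to 65 counts per library. In the wild-type, Msh6+/- and Msh6-/- pairs 4, 2 and 0 of 8 Q140 mice lay above the median of their controls. Psmb8 was called lower in 1 pair, and its sign was not the same in all 3. Its averaged log2 fold change of -0.21 ± 0.09 passed narrowly (adjusted p = 0.0461). The call was lost, at adjusted p-values from 0.0501 to 0.235, with no filter, without the sex term, with the animal number prefix, on the FPKM scale and without mouse 21-3. Psmb9, the immune caspase-like subunit beside it on chromosome 17, had nearly the same value with a wider error, -0.21 ± 0.13 (adjusted p = 0.172). Both genes lie 53.8 Mb from Msh6. Microglia, which in brain carry much of the immune proteasome, had lower markers in the same tissue. With Q140 8 of 8 fell, against 23.6% of all genes, with a median log2 fold change of -0.21. Their summed level was 335.4 to 397.3 CPM in striata with Q140, against 380.0 to 463.5 CPM in striata without. The part of these cells in the values of Psmb8 and Psmb9 was not tested.

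In the alpha ring of the core, which gates the barrel, 0 of 7 genes tested were called by edgeR, against 52.7% of all genes. At an unadjusted p under 0.05 there was 1, and the median log2 fold change was 0.023. DESeq2 also called 0 of 7, whereas limma-trend on the FPKM scale called 7 of 8 higher, with a median of 0.089. Psma1 had the smallest adjusted p, with a median of 49.8 CPM in the 24 striata with Q140 (45.5 to 53.0) against 49.3 CPM in the 24 without (42.9 to 53.1), a log2 fold change of 0.042 ± 0.020 (adjusted p = 0.0779). Psma5 followed at 0.038 ± 0.027 (adjusted p = 0.241). In the beta ring 5 of 7 rose and 0 fell, with a median of 0.054, where 29.1% of all genes rose and 23.6% fell. That count was 3 without the striatum of mouse 21-3 or with RLE factors, 2 with no filter on low counts and 7 on the FPKM scale, with 0 falls in each. The alpha ring was not tested against the beta ring.

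Psmb5, which carries the chymotrypsin-like site that proteasome inhibitors bind, rose most of the constitutive beta genes. Its striatal median was 40.8 CPM with Q140 (34.8 to 46.1, 24 mice), against 38.7 CPM without (34.2 to 44.1, 24 mice), and the groups overlapped. The averaged log2 fold change was 0.099 ± 0.021 (adjusted p = 9.84e-05). Psmb7, the trypsin-like subunit, rose by 0.080 ± 0.021 (adjusted p = 1.25e-03), with 65.2 CPM against 62.3 CPM in the medians. Psmb4, Psmb3 and Psmb1, which carry no active site, rose by 0.054, 0.054 and 0.033. The rise of Psmb1 was not shared by the 3 pairs: it passed in 1, and its sign differed between them. In its wild-type, Msh6+/- and Msh6-/- pairs 2, 8 and 2 of 8 Q140 mice lay above the median of their controls. The pooled medians of Psmb1 were 80.1 CPM both with and without Q140. Psmb6, the caspase-like subunit, was at -0.0001 ± 0.019 and Psmb2 at 0.027 ± 0.025, neither of which passed.

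The ATPases of the base split. Psmc4, Psmc6 and Psmc3 rose, by 0.094 ± 0.021, 0.089 ± 0.018 and 0.049 ± 0.016, while Psmc5 and Psmc1 fell, by 0.086 ± 0.020 and 0.078 ± 0.016 on the log2 scale. Psmc2, which lies 13.0 Mb from Htt on chromosome 5, was at -0.039 ± 0.019 and did not pass (adjusted p = 0.0837). The part of DNA near the knock-in in its values was not tested. These proteins sit side by side in 1 hexameric ring. Psmc6 (chromosome 14, 45329788 to 45349705) had a median of 58.1 CPM in the 24 striata with Q140 (54.7 to 62.4), against 55.7 CPM in the 24 without (50.2 to 60.9). It passed the test in each of the 3 pairs, with 8, 8 and 7 of 8 Q140 mice above the median of their controls.

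Psmc5 (chromosome 11, 106256154 to 106263120), named here after its values were seen, had lowest, median and highest striatal values of 93.5, 99.8 and 103.2 CPM in Q140 mice, against 101.8, 111.0 and 116.3 CPM in wild-type mice. Of the 8 Q140 mice, 6 lay below every wild-type mouse. In Q140 Msh6+/- mice the values were 95.5, 101.5 and 108.6 CPM, against 93.0, 103.4 and 108.9 CPM in Msh6+/- mice, and this pair did not pass (log2 fold change 0.0009 ± 0.034). In Q140 Msh6-/- mice they were 96.3, 101.9 and 111.3 CPM, against 100.9, 113.6 and 121.5 CPM in Msh6-/- mice. The fall passed in the other 2 of 3 pairs (adjusted p of 1.37e-03 and 5.19e-03). Among mice without Q140, the Msh6+/- group had the lowest median of Psmc5.

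Psmc1 had a median of 88.9 CPM in striata with Q140 (84.2 to 97.8), against 96.2 CPM in striata without (88.0 to 103.2), and its Msh6-/- pair did not overlap. These falls hold relative to the other genes of the fit and depend on scaling: on the FPKM scale Psmc5 was at -0.015, Psmc1 at -0.0084 and Psmc2 at 0.030, with no call among them, while RLE factors gave -0.094 and -0.087 for Psmc5 and Psmc1, both called, and called Psmc2 as well at -0.048. Psmc6 was at 0.16 on the FPKM scale and 0.080 with RLE factors, called on both.

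Of the 11 other regulatory particle genes, 7 rose and 0 fell, where 29.1% of all genes rose and 23.6% fell. Their median log2 fold change was 0.056. RLE factors gave 5 rises, no filter gave 4 and the FPKM scale gave 11, with 0 falls in each. Psmd6, a subunit of the lid, rose by 0.11 ± 0.02 (adjusted p = 3.19e-06). Its striatal median was 48.9 CPM with Q140 (46.1 to 55.2), against 45.9 CPM without (43.4 to 50.4), and all 8 Q140 mice of each pair lay above the median of their controls. Psmd1, a large scaffold of the base, rose by 0.085 ± 0.014 (adjusted p = 9.96e-07), with medians of 126.3 CPM with Q140 and 120.1 CPM without. Psmd1 overlaps Gm21972 on the same strand over 5515 bases and Htr2b on the opposite strand, so its values are less certain. Psmd2, the other large scaffold, rose by 0.060 ± 0.014, and Psmd4, a ubiquitin receptor, by 0.059 ± 0.021. Psmd4 passed in 1 pair, and its sign was not the same in all 3. In its wild-type, Msh6+/- and Msh6-/- pairs 7, 7 and 3 of 8 Q140 mice lay above the median of their controls. The lid subunits Psmd8, Psmd11 and Psmd12 rose by 0.073, 0.056 and 0.050. Psmd14, the deubiquitinase that removes the chain, was at 0.014 ± 0.021, and its partner Psmd7 was at -0.0063 ± 0.021.

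Among the 7 assembly factors 3 rose and 0 fell, where 29.1% of all genes rose, 23.6% fell and 52.7% were called. The group was not tested against all genes. Psmg2, a chaperone of the alpha ring, had a median of 11.5 CPM in striata with Q140 (10.1 to 13.3), against 10.4 CPM in striata without (8.92 to 12.3), a log2 fold change of 0.16 ± 0.03 (adjusted p = 6.26e-05). Psmg3, another alpha-ring chaperone, rose by 0.12 ± 0.05 (adjusted p = 0.0327), while Psmg1, which pairs with Psmg2, was at 0.024 ± 0.044. Psmg3 overlaps Gm26938 on the same strand over 2816 bases, so its values are uncertain here and in the tissue comparisons. Psmd9, a chaperone of the base that lies 88.3 Mb from Htt on chromosome 5, rose by 0.091 ± 0.026 (adjusted p = 2.23e-03), and it overlaps Hpd on the opposite strand. The base chaperones Psmd5 and Psmd10 were at -0.011 ± 0.019 and 0.036 ± 0.039, and neither passed.

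Outside the complex, Psmc3ip rose by 0.23 ± 0.05 (adjusted p = 2.63e-04), with 3.83 CPM in striata with Q140 and 3.25 CPM in striata without in the medians. Of the single pairs it passed against wild type (0.37 ± 0.09, adjusted p = 1.98e-03), while the Msh6+/- and Msh6-/- pairs gave 0.14 and 0.19 without passing. Psme2b rose by 0.14 ± 0.04 (adjusted p = 2.94e-03), but it is a near copy of Psme2 that lies wholly inside Gm12185, so reads may be shared between them and the values of both Psme2b and Psme2 are uncertain.

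Taken by pair of genotypes, fewer genes passed. With Q140 against wild type, 8 rose and 2 fell, which is 20.4% of the 49 tested against 29.7% of all genes (15.5% higher and 14.2% lower). With Q140 Msh6+/- against Msh6+/-, 15 rose and 0 fell, 30.6% against 31.2% of all genes (16.3% higher and 14.9% lower). With Q140 Msh6-/- against Msh6-/-, 8 rose and 3 fell, 22.4% against 33.0% of all genes (17.8% higher and 15.2% lower), and without the striatum of mouse 21-3 that pair had 7 rises and 2 falls. Psme1, Psmb10, Psmd6, Psmc6 and Psmg2 rose in all 3 pairs, Psmb5, Psmd1 and Psmd2 in 2 pairs, and Psmc1 and Psmc5 fell in 2. A further 11 genes were called in 1 pair and 28 in none, and no gene was called in opposite directions. How many of all genes were called in several pairs or in none was not counted, so these counts have no share to be read against. On the FPKM scale the 3 pairs had 32 rises and 0 falls, 31 and 1, and 25 and 0 of 50 proteasome genes. Over all 20317 genes tested on that scale there were 5370 rises and 1509 falls, 5144 and 1751, and 5648 and 1657. The order of the proteasome share and that of all genes thus turned with the scale.

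**Figure D3:**
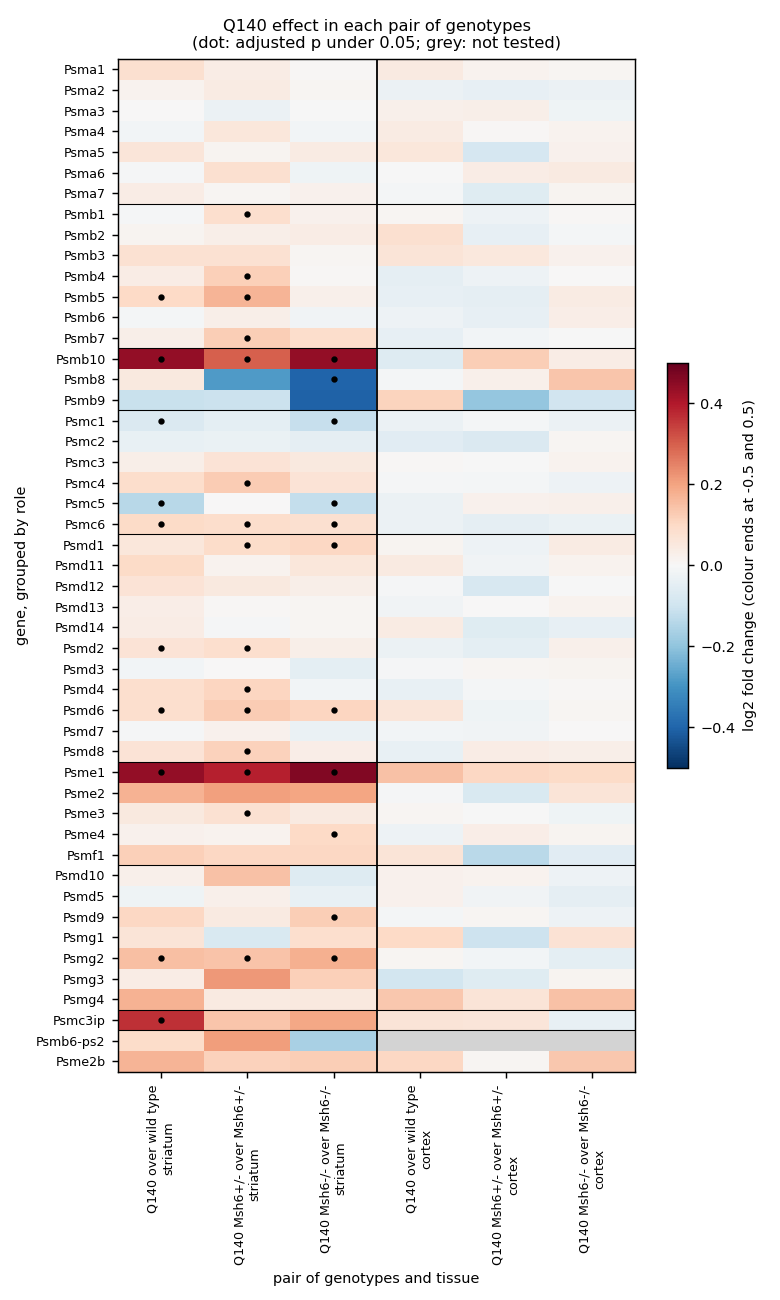
Log2 fold change of Q140 in each pair of genotypes for 49 genes grouped by role, with the 3 striatal pairs on the left and the 3 cortical pairs on the right. Red is higher with Q140, blue is lower, and a dot marks an adjusted p under 0.05. Psme1 and Psmb10 are red in the 3 striatal columns, Psmc5 is blue in 2 of them, and the cortical columns hold no dot.

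No proteasome gene passed between Msh6 genotypes. In the 8 comparisons of Msh6 genotypes (Msh6+/- or Msh6-/- against Msh6+/+, with or without Q140, in each tissue) 0 of 49 striatal and 0 of 48 cortical genes were called by edgeR, and 0 by DESeq2 or limma-trend. At an unadjusted p under 0.05 there were 0 to 5 genes a comparison. Over all genes the share called was as low. In striatum it was 0.0114% for Msh6+/- and 0.0971% for Msh6-/- against wild type, and 0.00571% for Q140 Msh6+/- and 0.177% for Q140 Msh6-/- against Q140. The last comparison had 20 genes higher and 11 lower, against 6 and 8 without the striatum of mouse 21-3. In cortex the same comparisons gave 0.00567%, 0.131%, 0.0113% and 0.153%. The 4 tests of whether the Q140 effect differed by Msh6 genotype called 0 proteasome genes and 0.0% of all genes, with 0 to 5 proteasome genes at an unadjusted p under 0.05. In striatum the Q140 effect in Msh6-/- minus that in Msh6+/+ mice had its median at -0.017 over the 49 genes. A p above the threshold does not show that the effects were equal. For Psmc5 the Q140 effect was 0.0009 in the Msh6+/- pair and -0.14 in the wild-type pair.

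**Figure D4:**
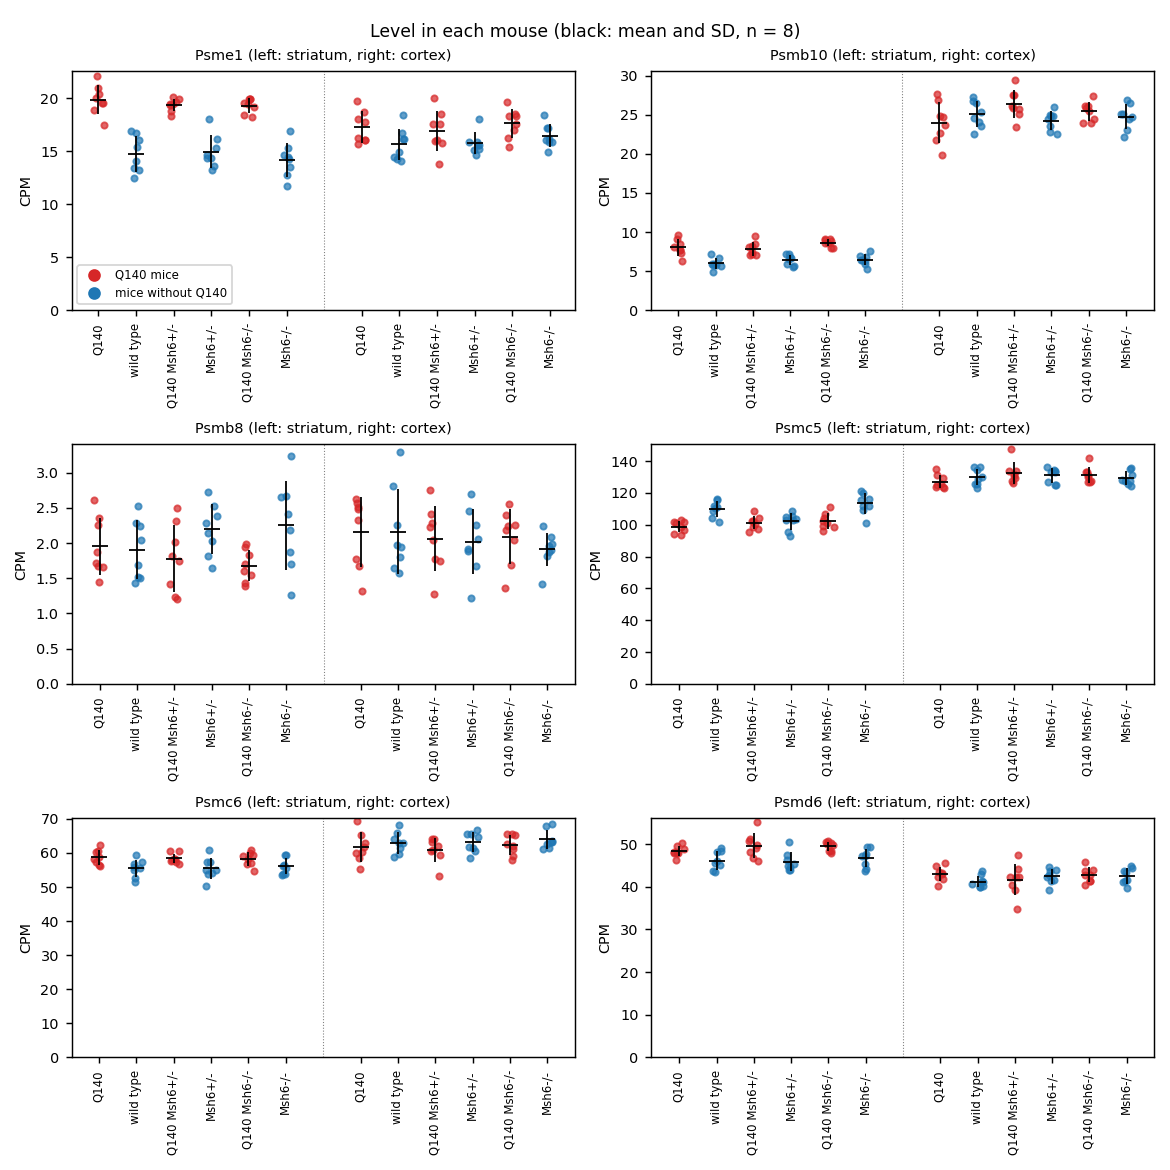
CPM of 6 genes in every mouse by genotype, striatum left and cortex right of the dotted line in each panel, with red for Q140 mice, blue for mice without Q140 and the mean and SD in black (n = 8). Psme1 separates fully within each striatal pair and overlaps in cortex. Psmb10 has a median of 7.15 CPM in striatum and 24.9 CPM in cortex, and the groups of Psmb8 overlap throughout.

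In cortex no proteasome gene passed. Averaged over the Msh6 genotypes, 0 of 48 genes were called by edgeR, against 1.54% of all 17622 genes, with 2 at an unadjusted p under 0.05; DESeq2 called 1, Psme1. The pairs gave 0 each, against 0.017%, 0.193% and 0.136% of all genes, with 1, 4 and 0 at an unadjusted p under 0.05. The median log2 fold change was -0.0022. Psme1 came nearest, with a median of 17.6 CPM in the 24 cortices with Q140 (13.8 to 20.0), against 15.9 CPM in the 24 without (14.1 to 18.4). Its log2 fold change was 0.12 ± 0.03 (adjusted p = 0.0513), against 0.43 in striatum. Psmc2, 13.0 Mb from Htt, followed at -0.039 ± 0.019 (adjusted p = 0.354), then Psme2b at 0.082 ± 0.042 and Psmg4 at 0.12 ± 0.06. Psmb10 was at 0.033 ± 0.029 in cortex, where its level is higher.

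The difference between tissues was tested directly over all 96 libraries. The Q140 effect was more positive in striatum than in cortex for 19 proteasome genes and more negative for 1, which is 40.8% of 49, against 37.5% of all 18440 genes. The share more positive was 38.8%, against 21.4% of all genes, and the share more negative was 2.04%, against 16.2%. Psmb10 differed by 0.36 ± 0.05 (adjusted p = 1.02e-08) and Psme1 by 0.32 ± 0.05 (adjusted p = 8.03e-09). Psme2, Psmg2, Psmg3, Psmf1, Psmc6 and Psmb5 followed at 0.20, 0.18, 0.17, 0.16, 0.13 and 0.12. Psmc5 was the 1 gene with a more negative effect in striatum, at -0.086 ± 0.026 (adjusted p = 5.49e-03). The split was 15 and 2 with RLE factors, 13 and 2 without the striatum of mouse 21-3, and 32 and 0 on the FPKM scale. Over all genes the split was 3939 more positive and 2980 more negative with that library, against 3035 and 3586 without it.

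Whole striatum and cortex also differed in level, averaged over all genotypes, with and without Q140. Of the 49 genes, 19 were higher and 22 lower in striatum, 83.7% against 87.1% of all genes (45.2% higher and 41.9% lower), and most of these differences were below 0.3 on the log2 scale. Psmb10 stood apart, with 7.15 CPM in striatum (4.92 to 9.62) and 24.9 CPM in cortex (19.9 to 29.4), medians over 48 mice, a log2 fold change of -1.80 ± 0.03 (adjusted p = 4.68e-80). No striatum reached any cortex. Psmf1 followed at -0.39 ± 0.02, then Psmc3 at -0.32 ± 0.01 and Psmc5 at -0.32 ± 0.01. In the other direction Psmc3ip was higher in striatum by 1.78 ± 0.05, with 3.71 CPM against 1.02 CPM in the medians. Psmg4, the alpha-ring chaperone that pairs with Psmg3, was higher by 0.86 ± 0.04, with 4.70 CPM against 2.51 CPM, and Psme2 by 0.33 ± 0.03. Psmg3 itself was lower in striatum, at -0.23 ± 0.03. The size of such differences can include the Q140 effect. For Psme2 the medians were 6.88 CPM in striatum and 5.10 CPM in cortex with Q140, against 5.91 and 5.21 CPM without.

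Genes that work with the proteasome but fall outside the name rule moved in both directions. Of 31 such genes of ubiquitin transfer, shuttling, deubiquitination and proteasome control, 8 rose and 9 fell with Q140 in striatum, 54.8% against 52.7% of all genes, with a median log2 fold change of 0.013. Uba1, the main ubiquitin-activating enzyme, rose by 0.19 ± 0.012 (adjusted p = 5.94e-19). Uchl1, a neuronal deubiquitinase, rose by 0.16 ± 0.022 (adjusted p = 8.36e-09), and Vcp, the ATPase that pulls ubiquitinated proteins out of complexes, rose by 0.11 ± 0.015 (adjusted p = 2.73e-08). Nfe2l1 fell by 0.20 ± 0.015 (adjusted p = 1.45e-16) and Ddi2 fell by 0.18 ± 0.023 (adjusted p = 1.33e-09) on the log2 scale. Nfe2l1 is the transcription factor that induces proteasome genes when proteasome activity is short, and Ddi2 is the protease that cleaves it to its active form. The shuttle factor Ubqln4 fell by 0.25 ± 0.019 (adjusted p = 6.23e-16). In cortex 0 of the 31 were called by edgeR, with 5 at an unadjusted p under 0.05 and a median of -0.0077.

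Sex had a small effect on few of the genes. In females against males, 0 genes rose and 2 fell in striatum, 4.08% of 49 against 5.54% of all genes (3.11% higher and 2.43% lower). They were Psma7, an alpha subunit named here after its values were seen, with medians of 57.4 CPM in 24 females and 60.3 CPM in 24 males (-0.069 ± 0.020, adjusted p = 0.0279), and Psmf1 with 25.3 and 26.5 CPM (-0.10 ± 0.03, adjusted p = 0.0412). In cortex Psma7 was again lower in females, with 58.1 against 61.5 CPM (-0.071 ± 0.021, adjusted p = 0.0296), and was the 1 gene called of 48, against 6.31% of all genes (3.48% higher and 2.83% lower).

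Cell type markers moved with Q140 in the same striata. The 10 projection neuron markers all fell, with a median log2 fold change of -0.66 and a summed level of 6595 to 7476 CPM in striata with Q140, against 10260 to 13490 CPM in striata without. Among 8 markers each, 7 astrocyte and 6 oligodendrocyte genes fell, and 6 of 6 endothelial genes fell. Of all genes, 23.6% fell. Results of a list of pan-neuronal markers are not reported here. In cortex the projection neuron markers had 1 rise and 1 fall of 10, where 1.54% of all genes were called. The part of these cell types in the proteasome values was not tested.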

How the data were processed

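Raw read counts per gene and FPKM were deposited by the authors as tables over 48795 genes and 96 libraries. Per the submitters' processing notes, the tools were STAR 2.7.5c, SAMtools 1.10 and HTSeq 0.12.3, on GRCm38. Per the labels, libraries were made with a stranded kit. Whether HTSeq counted by strand, and with which gene models, was not stated there. In the deposited FPKM table the implied length per gene was constant over libraries.

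The counts were tested with edgeR 4.0.16 (R 4.3.3): TMM factors, filterByExpr (minimum count 10, total 15), genotype means plus sex, quasi-likelihood F tests, Benjamini-Hochberg over all genes, threshold 0.05. Each tissue was fitted over its 48 libraries and the tissue comparisons over all 96. SE is the log2 fold change over the root of F. CPM values use TMM factors over 96 libraries. FPKM was tested with limma-trend 3.58.1 on log2(FPKM + 0.1) and log2(FPKM + 1) for genes averaging at least 0.1 FPKM. Fold changes on that scale understate those of low genes. DESeq2 1.42.0 was a further alternative. The test was also run on simulated counts in which few genes changed, up or down at random. In striatum 52.7% of genes were called, so that run does not check the scaling of these data.

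Genotype groups hold different mice, and p-values within a tissue set differences against the spread between mice. Striatum and cortex carry the same animal numbers in the labels, but the tissue comparisons reported here treated the 96 libraries as independent. Deviations from group means correlated between the 2 tissues of a mouse with a median of 0.104 (48 mice), against -0.00263 between mice, and a fit with animal as a block was run for the tissue comparisons.

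The genes and lists were chosen with earlier results of these data known. Genes described by their CPM levels were chosen as the 2 with the smallest adjusted p per role for Q140 in striatum, the 3 immune catalytic subunits, any gene called between Msh6 genotypes (none was), the 4 with the smallest adjusted p in cortex, and the 3 largest rises and falls between tissues at a mean log2 CPM of at least 1. Psmc5 and Psma7 were added after their values were seen. The fold changes of other members are given by role. Results of a list of interferon-induced genes are not reported here.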

Additional observations from a re-analysis of the deposited data

Results flagged for a closer look

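Within groups of 8 mice, 16 of 276 group and gene combinations (23 genes in 12 groups) held a sample whose gap to its neighbour, as a share of the group's range, exceeded Dixon's critical value for 8 samples, and chance flags about 1 in 20. Mouse 15-1 (Q140 Msh6+/-) accounted for 5 of them. In its cortex Psmc5 (147.9 CPM), Psmc1 (110.0 CPM) and Psma7 (69.8 CPM) were the highest of the group, and in its striatum Psmf1 was the highest (32.0 CPM) and Psmc3ip the lowest (3.04 CPM). In the cortex of mouse 14-1 of the same genotype Psmc6 was the lowest (53.2 CPM) and Psmb9 the highest (2.02 CPM), and in the striatum of mouse 26-4 Psmc1 was the highest (97.0 CPM). In Q140 Msh6-/- mice, Psmb5 was lowest in the striatum of 27-1 (34.8 CPM), Psme2b was lowest in its cortex (6.74 CPM), Psmg4 was highest in the striatum of 21-4 (6.26 CPM) and Psmc5 was highest in the cortex of 32-4 (142.1 CPM). Among cortices without Q140, the highest sample stood apart for Psme1 in Msh6+/- mice (26-3, 18.1 CPM), for Psmd9 (24-3, 23.6 CPM) and Psmc3ip (14-3, 1.46 CPM) in Msh6-/- mice, and for Psmb9 in wild-type mice (13-2, 2.07 CPM).

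The Q140 effect differed between striatum and cortex for 20 proteasome genes in the test of the difference itself (edgeR). For the 12 of these among the 23 genes above, the difference in log2 fold change, striatum minus cortex, was 0.3630 for Psmb10, 0.3202 for Psme1, 0.2033 for Psme2, 0.1806 for Psmg2, 0.1551 for Psmf1 and 0.1301 for Psmc6. It was 0.1186 for Psmb5, 0.1052 for Psmd9, 0.1025 for Psmb7, 0.0947 for Psmd6, 0.0793 for Psmd1 and -0.0855 for Psmc5. The other 8 were Psmg3, Psmc4, Psmd12, Psmb4, Psmd2, Psmd4, Psmd8 and Psme3, at 0.0652 to 0.1749. Of the 12, Psmb10, Psme1, Psmg2, Psmf1, Psmc6 and Psmb5 kept the call under every alternative. Psme2, Psmd9, Psmb7, Psmd6, Psmd1 and Psmc5 each lost it under some alternative.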

How the results depend on the processing

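Of the counts of proteasome genes called, 202 values under the alternatives lay within 1.5 times the value reported and 21 did not. On the FPKM scale with either pseudocount, the counts for Q140 in striatum were 32 against wild type, 32 for the Msh6+/- pair and 25 for the Msh6-/- pair, against 10, 15 and 11 by TMM, and that for the difference between tissues was 32 against 20. With no filter on low counts they were 4 against wild type, 7 for the Msh6-/- pair, 9 for the difference between tissues, and 0 for females against males in either tissue (2 in striatum and 1 in cortex as reported). For Q140 against wild type in striatum, RLE factors gave 6 and an adjusted p of 0.1 gave 18. For Q140 in cortex DESeq2 and an adjusted p of 0.1 gave 1 each, against 0. For females against males, cortex gave 2 with DESeq2 or with the animal number prefix as a covariate and 4 at an adjusted p of 0.1, and striatum gave 1 on FPKM plus 0.1. Psmc2 turned from -0.039 to 0.0302 and 0.0285 on the 2 FPKM scales, and of the other values for single genes 356 kept their side of the threshold, 23 lost it and 11 gained it. The cause of these moves was not tested. With animal as a replicate block, the difference between tissues called 20 genes and striatum against cortex called 41, as without it, and it changed no other call. Genotype groups share no animals, so no paired analysis was possible within a tissue.

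The FPKM alternatives changed the scaling, the test and the filter together, and RLE factors alone moved the averaged count in striatum to 25, against 28. For Psmb8 and Psmb9 the SE was 0.09 and 0.13, about the size of most changes called. Strand-specific counting is unknown here, which limits genes that overlap others, such as Psmb7 with Nek6 and Psmc3 with Slc39a13 on the opposite strand. Transcript levels say nothing of subunit protein or proteolytic activity.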
